A study of Mus musculus with 8 samples.

Results

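The expression of 8 genes of Schwann cells and peripheral nerve was examined in RNA-seq data from undifferentiated pleomorphic sarcomas (UPS) of the mouse hind limb. The genes, taken by symbol from the table of raw counts, were Mbp, Prx, Pmp22, Mag, Sox10, S100b, Ngfr and Cdh19, 8 of the 26667 rows of the table. All 8 tumours carried the same initiating alleles, Trp53 fl/fl among them, on a mixed 129 and C57BL/6 background, and 4 of them (KP 5 to KP 8) had no further floxed allele. The other 4 (KPH2 1 to KPH2 4) were also Epas1 fl/fl, so that Cre removes HIF-2α, the hypoxia-inducible transcription factor that Epas1 encodes. Tumours were started by adenovirus expressing Cre (Ad-Cre) injected into the gastrocnemius muscle, and recombination is limited to infected cells and their descendants. Host cells of a section that the virus did not infect keep their floxed alleles unrecombined. Whether cells of nerves or vessels near the injection were infected is not known from these data. Mice were at least 8 weeks old at injection and of both sexes. RNA came from formalin-fixed, paraffin-embedded tissue, 1 library per tumour. The labels do not tie the tumours to separate animals, so the p-values below measure the spread between tumours.

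Schwann cells are the glia of peripheral nerves, the tissue that runs through every limb muscle. A myelinating Schwann cell wraps its membrane around 1 axon and compacts it with a small set of proteins. Sox10 is the transcription factor that the lineage requires at every stage, and Egr2 (Krox20) acts with it to switch on the myelin genes. Non-myelinating and injury-response Schwann cells carry little myelin protein and express Ngfr, the p75 neurotrophin receptor. A nerve within a section brings reads of Sox10 and the myelin genes together. Several of the 8 genes are also used elsewhere: Pmp22 in fibroblasts and epithelia, Prx in endothelium, S100b in fat and cartilage, and Mbp and Mag in the oligodendrocytes of the brain.

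The sequences before the transcription starts of Mag, Ngfr and Pmp22 are shown because Mag alone held a SOX motif, Ngfr was the gene whose groups were apart, and Pmp22 had the highest level and several promoters in RefSeq. The motifs searched on both strands were ACAAAG and ACAATG for SOX factors, and ACGTG and GCGTG for the hypoxia response element (HRE), whose letters are also found within the E-box CACGTG. RefSeq windows of 300 bases (250 before and 50 after each start) covered 5 of the 8 genes with 10 windows, and windows for Mbp, Sox10 and Cdh19 were not used here. A SOX motif lay in 2 of the 10 windows, both overlapping windows of Mag, against 28.6% of all 32851 RefSeq windows. An HRE motif lay in 4 of the 10, 1 of Prx, 1 of Ngfr and 2 of Pmp22, against 43.8% of all windows. These matches are a description of letters and not of bound sites. The 250 bases upstream of each start are given 5′ to 3′ on the gene's strand, from GRCm38.p6, with motif matches in capitals. The stretches are chr7:30914923-30915172 (minus strand) for Mag, chr11:95587699-95587948 (minus strand) for Ngfr, and chr11:63128732-63128981 and chr11:63132319-63132568 (plus strand) for 2 of the 4 listed starts of Pmp22.
Mag: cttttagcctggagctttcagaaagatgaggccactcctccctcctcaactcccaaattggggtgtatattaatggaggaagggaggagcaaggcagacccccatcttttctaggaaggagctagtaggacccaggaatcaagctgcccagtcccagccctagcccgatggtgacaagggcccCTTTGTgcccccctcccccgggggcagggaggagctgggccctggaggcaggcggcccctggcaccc
Ngfr: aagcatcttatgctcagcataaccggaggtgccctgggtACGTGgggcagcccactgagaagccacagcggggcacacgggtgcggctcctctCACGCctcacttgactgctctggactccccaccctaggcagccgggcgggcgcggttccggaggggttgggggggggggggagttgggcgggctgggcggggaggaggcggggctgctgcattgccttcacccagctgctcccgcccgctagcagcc
Pmp22, upstream start: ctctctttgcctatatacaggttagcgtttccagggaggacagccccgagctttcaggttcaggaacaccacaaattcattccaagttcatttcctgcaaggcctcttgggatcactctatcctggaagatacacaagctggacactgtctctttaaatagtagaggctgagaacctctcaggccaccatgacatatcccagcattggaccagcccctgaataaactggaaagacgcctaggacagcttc
Pmp22, downstream start: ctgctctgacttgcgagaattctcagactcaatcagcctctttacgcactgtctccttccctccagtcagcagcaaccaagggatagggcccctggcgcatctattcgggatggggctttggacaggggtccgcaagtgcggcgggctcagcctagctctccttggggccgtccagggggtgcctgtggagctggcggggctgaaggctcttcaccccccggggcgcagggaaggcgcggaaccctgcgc
The capitals mark the SOX match CTTTGT in Mag, and the HRE matches ACGTG and CACGC in Ngfr. The 2 Pmp22 stretches shown held neither motif, while the windows of the other 2 Pmp22 starts, which are not shown, each held 1 HRE match. The stretches shown differed in base composition, with 48.8% G and C upstream and 64.8% downstream. Gene-level counts pool all starts of Pmp22, so transcripts from its separate promoters were not told apart.

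The deposited counts summed to between 6463221 and 13155510 reads per tumour. Levels are given as counts scaled to a common library size (CPM), scaled by TMM, which corrects for differences in library composition, and levels of different genes are compared as RPKM, the CPM per kilobase of exon. A count of 3 reads corresponded to between 0.223 and 0.445 CPM. KPH2 1, which the study left out as a technical outlier, is shown apart, and the tests compare KPH2 2, 3 and 4 with the 4 KP tumours unless all 8 are named. Epas1, the deleted gene, was at 59.2, 83.2, 86.9 and 84.1 CPM in KP 5 to 8, at 53.4, 37.7 and 42.5 in KPH2 2 to 4, and at 32.6 in KPH2 1. All 4 KPH2 tumours lay below all KP tumours, with a log2 fold change of −0.81 (SE 0.19, adjusted p = 0.0742, edgeR's quasi-likelihood test, with p-values adjusted by Benjamini and Hochberg's method across every gene that entered the fit), which did not pass 0.05. The count pools all exons and also holds RNA from unrecombined host cells. KPH2 2 to 4 held more reads of skeletal muscle than the KP tumours, with summed levels of 30 muscle markers between 4397 and 20073 CPM against 1993 to 3557 CPM, and 1547 CPM in KPH2 1. All 30 had a positive log2 fold change (median 2.10, beside −0.02 for all genes tested), and 3 were called higher, against 1.24% of all genes tested.

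None of the 7 genes that could be tested was called between KPH2 and KP at an adjusted p of 0.05, against 1.96% of the 14867 genes tested (1.24% higher and 0.72% lower in KPH2). At an unadjusted p under 0.05 there were 3 of 7, Ngfr, Pmp22 and Cdh19, against 17.8% of all genes. With all 8 tumours 0 of 7 were called, against 0.00675% of 14805 genes, and 2 of 7 (Pmp22 and Cdh19) had an unadjusted p under 0.05, against 14.7%. With DESeq2 1 of 7 was called, Cdh19, against 7.2% of the genes for which it gave an adjusted p, and 3 of 7 had an unadjusted p under 0.05, against 13.6%. The groups did not overlap for 1 of the 7, Ngfr, against 16.9% of all tested genes, and 0 of 7 had KPH2 2 to 4 below every KP tumour, against 8.15%. With KPH2 1 the groups overlapped for all 7, while 8.15% of genes were apart. The log2 fold changes had no common direction: 4 of 7 were positive and 3 negative, with a median of 0.06 beside −0.02 for all genes tested. Sox10 had too few reads for the test. In a bulk section, fewer cells of a type and less RNA per cell cannot be told apart.

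**Figure D1:**
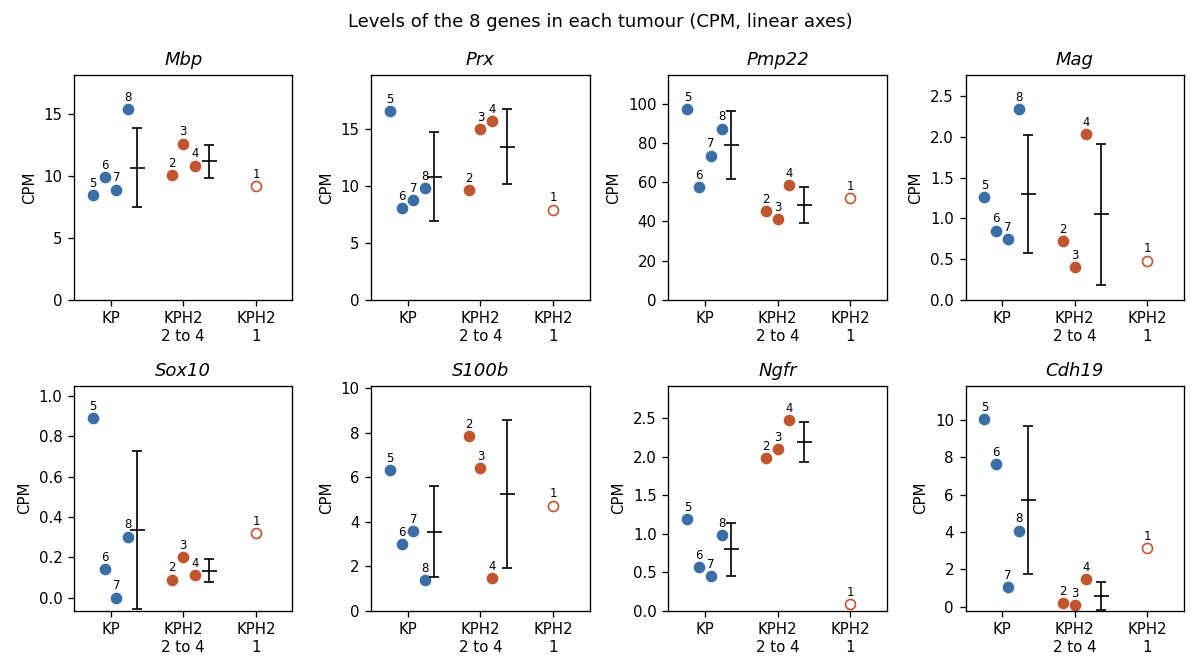
Level of each of the 8 genes in each tumour (y axes, CPM on linear scales of their own). Filled points are the 4 KP and 3 KPH2 tumours of the comparison, numbered, the open point is KPH2 1, and bars give the mean ± SD of the filled points. Only for Ngfr do the filled points of the groups not overlap, and KPH2 1 then lies below every KP tumour at 0.08 CPM.

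The 8 genes spanned a wide range of levels per kilobase, and only Pmp22 was above the middle of the transcriptome. Over the 7 tumours compared its mean was 31.4 RPKM, higher than 86.2% of the 14457 tested genes with a length, whose median was 8.32 RPKM. S100b followed at 2.88, Prx at 2.20, Mbp at 1.63, Cdh19 at 0.895, Mag at 0.490, Ngfr at 0.404 and Sox10 at 0.0915 RPKM. Sox10 was higher than 0.0553% of tested genes and S100b than 25.4%. Of the neighbours in this order, Pmp22 and S100b were apart in 8 of 8 tumours, Prx was above Mbp in 7 and Ngfr above Sox10 in 7. S100b was above Prx in 6, Mbp above Cdh19 in 6 and Mag above Ngfr in 6, and Cdh19 was above Mag in 4 of 8, so the ranges of all neighbours other than Pmp22 and S100b overlapped.

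**Figure D2:**
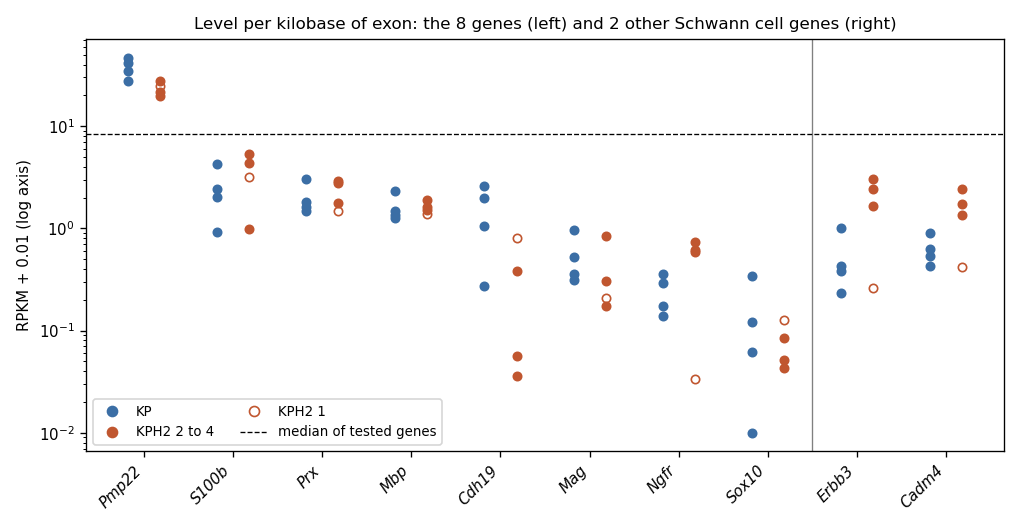
Level per kilobase of exon (y axis, RPKM + 0.01 on a log scale) of the 8 genes in descending order, and of Erbb3 and Cadm4, in each tumour. Blue points are KP, orange points KPH2 2 to 4 and open points KPH2 1, and the dashed line is the median of tested genes, 8.32 RPKM. Only Pmp22 lies above the line.

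Mbp encodes myelin basic protein, which draws the inner faces of the myelin membrane together. It was at 8.47, 9.90, 8.89 and 15.39 CPM in KP 5, 6, 7 and 8, at 10.08, 12.61 and 10.82 in KPH2 2, 3 and 4, and at 9.19 in KPH2 1. KP 8 alone was above the rest, and the groups overlapped, with means of 10.7 ± 3.21 (SD, n = 4) and 11.2 ± 1.30 (SD, n = 3). The log2 fold change was 0.06 (95% confidence interval −0.53 to 0.65, edgeR adjusted p = 0.934). With all 8 tumours it was −0.0026 (adjusted p = 0.998). The Mbp locus, on chromosome 18, also gives the Golli transcripts of immune and other cells, and gene-level counts do not separate them.

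Prx encodes periaxin, a scaffold that links the Schwann cell membrane to the basal lamina and that is also made by endothelium. Its levels were 16.56, 8.06, 8.75 and 9.81 CPM in KP 5 to 8, 9.63, 15.01 and 15.67 in KPH2 2 to 4, and 7.91 in KPH2 1. KP 5 and KPH2 3 and 4 formed the upper end, so the groups overlapped. The means were 10.8 ± 3.91 (SD, n = 4) and 13.4 ± 3.31 CPM (SD, n = 3), and the log2 fold change was 0.30 (95% confidence interval −0.40 to 1.01, edgeR adjusted p = 0.663). Drp2, dystrophin-related protein 2, which binds periaxin at the Schwann cell membrane, had a log2 fold change of 1.38 (edgeR adjusted p = 0.26).

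Pmp22 encodes peripheral myelin protein 22, a protein of compact myelin whose gene dosage underlies inherited neuropathies, and which many fibroblasts also express. It was at 97.29, 57.58, 73.53 and 87.31 CPM in KP 5 to 8, at 45.19, 41.03 and 58.61 in KPH2 2 to 4, and at 51.95 in KPH2 1. The 4 KPH2 tumours lay at the lower end, but KPH2 4 was just above KP 6. The means were 78.9 ± 17.2 CPM in KP (SD, n = 4) and 48.3 ± 9.19 in KPH2 (SD, n = 3). The log2 fold change was −0.71, 1.64-fold lower in KPH2 (95% confidence interval −1.21 to −0.22), with an unadjusted p of 0.0104 that was 0.137 after edgeR's adjustment over all genes. With KPH2 1 it was −0.68 (adjusted p = 0.184). Markers of endothelium and macrophages are given here since Pmp22 is not restricted to nerve. Of 8 endothelial genes 6 had a negative log2 fold change (median −0.55, 0 called), with summed levels of 293 to 569 CPM in KP, 307 to 314 in KPH2 2 to 4 and 223 in KPH2 1. All 8 macrophage genes had one (median −0.55, 0 called), with summed levels of 1437 to 2556 CPM in KP, 939 to 1596 in KPH2 2 to 4 and 1167 in KPH2 1. Over all genes tested the median was −0.02 and 1.96% were called. KP 5, the highest tumour for Pmp22, had the lowest summed endothelial and macrophage levels among the KP tumours. The part of endothelium and macrophages in the Pmp22 values was not tested.

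Mag encodes myelin-associated glycoprotein, which sits on the membrane facing the axon. It was at 1.26, 0.85, 0.74 and 2.34 CPM in KP 5 to 8, at 0.72, 0.40 and 2.03 in KPH2 2 to 4, and at 0.48 in KPH2 1. KP 8 and KPH2 4 stood above the others, each with the highest value of its group, and KPH2 3 was lowest on 4 reads. The log2 fold change was −0.38 with a 95% confidence interval from −1.82 to 1.07 (edgeR adjusted p = 0.815), an interval that holds changes of either sign. Mag had between 4 and 31 reads per library.

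Sox10 was the least detected of the 8, with 12, 1, 0 and 4 reads in KP 5 to 8, 1, 2 and 1 in KPH2 2 to 4, and 4 in KPH2 1. These are 0.89, 0.14, 0, 0.30, 0.09, 0.20, 0.11 and 0.32 CPM in the same order, and the 0 reads of KP 7 allow up to 0.445 CPM. KP 5 alone held 12 of the 17 reads of KP. KP and KPH2 2 to 4 overlapped (exact 2-sided permutation test over the 35 splits of 7 tumours, p = 0.629, where the smallest p possible is 0.0571, and p = 0.686 over the 70 splits of 8 tumours). The 17 reads of KP and 4 of KPH2 2 to 4 give a ratio of 0.318 after scaling, with a 95% interval of 0.0779 to 0.975, which covers counting error only. The defining factor of the lineage was thus at 4 reads or fewer in 7 of the 8 libraries, and these 8 genes as a set cannot be read as a measure of nerve tissue in the sections.

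S100b, a calcium-binding protein of Schwann cells that fat and cartilage cells also make, varied widely within both groups. It was at 6.31, 2.97, 3.56 and 1.36 CPM in KP 5 to 8, at 7.83, 6.40 and 1.47 in KPH2 2 to 4, and at 4.72 in KPH2 1. The lowest tumours were KP 8 and KPH2 4, those with the highest Mag. The log2 fold change was 0.56 (95% confidence interval −0.88 to 2.0, edgeR adjusted p = 0.699). KP 8, the lowest tumour for S100b, had the highest summed level of 10 adipocyte markers, 58.2 CPM against 24.4 to 37.4 in the other KP tumours, 19.7 to 24.8 in KPH2 2 to 4 and 26.1 in KPH2 1. Adiponectin (Adipoq), the defining secreted protein of fat, had 32 reads in KP 8 and at most 4 elsewhere. The 8 cartilage markers summed to 68.8 to 120 CPM in KP, 98.8 to 143 in KPH2 2 to 4 and 70.3 in KPH2 1, most of it Sox9. The part of fat and cartilage cells in the S100b values was not tested.

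Ngfr, the receptor among the 8, was the gene whose groups were apart. It was at 1.19, 0.57, 0.44 and 0.98 CPM in KP 5 to 8 and at 1.98, 2.10 and 2.48 in KPH2 2 to 4. KPH2 2 to 4 lay above every KP tumour, which 8.73% of all tested genes also did, but KPH2 1, at 0.08 CPM on 1 read, lay below every KP tumour. The means were 0.795 ± 0.349 CPM in KP (SD, n = 4) and 2.19 ± 0.260 in KPH2 (SD, n = 3). The log2 fold change was 1.38, 2.60-fold higher in KPH2 (95% confidence interval 0.45 to 2.31), with an unadjusted p of 0.00868 that was 0.128 after edgeR's adjustment. With KPH2 1 included the fold change was 0.97 (−0.69 to 2.64, adjusted p = 0.576). The reads behind these levels were 16, 4, 3 and 13 in KP and 22, 21 and 22 in KPH2 2 to 4.

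Cdh19, a cadherin of Schwann cell precursors and mature glia, had the largest fold change of the 7 tested. It was at 10.03, 7.64, 1.04 and 4.08 CPM in KP 5 to 8, at 0.18, 0.10 and 1.47 in KPH2 2 to 4, and at 3.12 in KPH2 1. KPH2 2 and 3, on 2 and 1 reads, were far below every KP tumour, but KPH2 4 was above KP 7, and KPH2 1 was within the KP range. The means were 5.69 ± 3.95 (SD, n = 4) and 0.582 ± 0.766 CPM (SD, n = 3). The log2 fold change was −3.34 (95% confidence interval −5.65 to −1.02), with an unadjusted p of 0.0105 and an adjusted p of 0.138 by edgeR. DESeq2 gave −3.32 with an adjusted p of 0.00498, so the call depended on the test. With KPH2 1 edgeR's value was −2.21 (adjusted p = 0.334). The 10 melanocyte markers, for cells that share the neural crest origin of Schwann cells, were near 0 for the pigment genes Mlana, Tyr, Tyrp1 and Dct (at most 3 reads) and at 0 for Oca2, while Pmel, another pigment gene, had 6 to 22 reads in every tumour. Their summed level, 104 to 140 CPM in KP, 50.3 to 86.6 in KPH2 2 to 4 and 104 in KPH2 1, was mostly that of Ednrb, Mitf and Kit, which other cells express. Of these markers 0 of the 4 tested were called, against 1.96% of all genes tested.

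**Figure D3:**
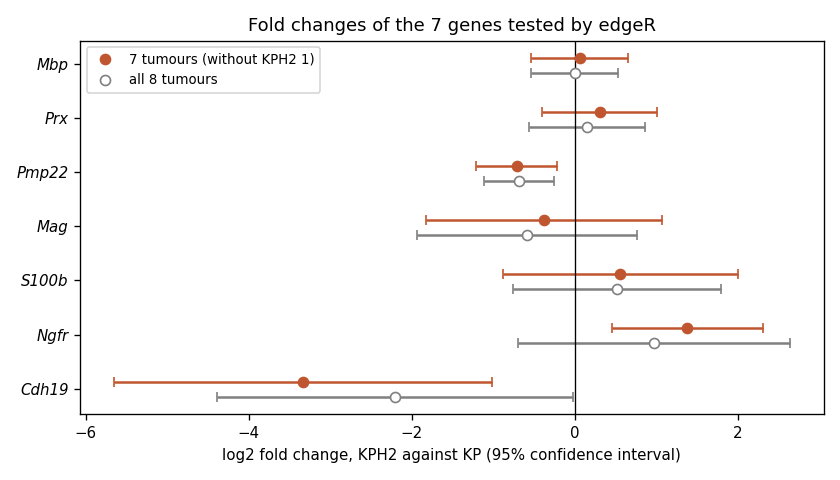
log2 fold change of KPH2 against KP (x axis) with 95% confidence intervals for the 7 genes tested. Orange points compare KPH2 2 to 4 with KP, open grey points add KPH2 1. The intervals of Pmp22, Ngfr and Cdh19 do not reach 0 over 7 tumours, and that of Ngfr does over 8.

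Of 21 further myelin genes, 11 passed the filter on low counts, and 7 of the 11 had a positive log2 fold change (median 0.27, beside −0.02 for all genes tested). The number called higher in KPH2 was 1, against 1.24% of all genes tested, and 0 were called lower, against 0.72%. The gap junction gene Gjb1 had 1 read in KP 5, 2 in KP 8 and 0 in the other tumours. Pmp2, another protein of peripheral myelin, had 2, 2 and 3 reads in KPH2 2, 3 and 4 and 0 in the other tumours.

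The most abundant myelin-list genes were Cnp, Adgrg6 and Gldn, all of them also made outside myelin. Cnp, a phosphodiesterase of the myelin channels, had 9.98 RPKM over the 7 tumours and a log2 fold change of 0.27 (edgeR adjusted p = 0.635). Adgrg6, the receptor that starts myelination, had 1.09 (edgeR adjusted p = 0.434), and Gldn, gliomedin of the nodes of Ranvier, had −1.83 (edgeR adjusted p = 0.337). Egr2, the partner of Sox10, named after its values were seen, was at 8.84, 12.4, 10.7 and 10.9 CPM in KP and at 13.3, 12.2 and 8.0 in KPH2 2 to 4, with 12.1 in KPH2 1. KP 7, without a read of Sox10, lay within the Egr2 range of the other tumours. Which cells of the sections held the Egr2 reads was not tested. Cadm4, an adhesion protein of the Schwann cell membrane also named after its values were seen, had 1.58 (edgeR adjusted p = 0.0741).

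Of 15 further genes of the Schwann cell lineage 11 were tested, and 10 of 11 had a positive log2 fold change (median 0.68, beside −0.02 for all genes tested). In KPH2 1 was called higher, against 1.24% of all genes tested, and 0 lower, against 0.72%. Itgb4, the integrin β4 that joins glia and epithelia to the basal lamina, was at 16.3, 10.2, 8.60 and 30.3 CPM in KP 5 to 8, at 80.6, 70.2 and 169 in KPH2 2 to 4, and at 7.03 in KPH2 1. KPH2 2 to 4 were above every KP tumour and KPH2 1 below, as for Ngfr, and the log2 fold change was 2.68 (edgeR adjusted p = 0.0407 over 7 tumours and 0.25 over 8). Its partner Itga6 had 1.03 (edgeR adjusted p = 0.0523) and Ncam1, which muscle also expresses, 0.24 (edgeR adjusted p = 0.858). Erbb3, the neuregulin receptor that Sox10 activates, was named after its values were seen. It was at 2.23, 5.94, 1.33 and 2.49 CPM in KP, 14.6, 18.1 and 9.92 in KPH2 2 to 4 and 1.52 in KPH2 1, with a log2 fold change of 2.26 (edgeR adjusted p = 0.0523). Foxd3, Fabp7, Gfap and Gfra3 had at most 4 reads in any tumour.

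Of 12 genes of the injury response of Schwann cells, in which Ngfr also takes part, 9 were tested and 0 were called, against 1.96% of all genes tested. A positive log2 fold change was found for 3 of the 9 (median −0.16, beside −0.02 for all genes tested). Jun, the factor that directs this response, was at 76.7 to 159 CPM in KP and 98.6 to 116 in KPH2 2 to 4, with a log2 fold change of −0.16 (edgeR adjusted p = 0.768). Gap43, a growth-cone protein, had −1.23 (edgeR adjusted p = 0.224). Shh and Olig1 had 0 reads in all 8 tumours.

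Of 18 axon genes 11 were tested, and 7 of 11 had a positive log2 fold change (median 0.18, beside −0.02 for all genes tested). Among the 11, 1 was called higher, against 1.24% of all genes tested, and 0 lower, against 0.72%. Scn9a, the sodium channel Nav1.7, was at 8.39, 6.37, 1.19 and 2.19 CPM in KP 5 to 8, at 76.2, 43.9 and 86.3 in KPH2 2 to 4, and at 7.67 in KPH2 1. Its log2 fold change was 3.90 (edgeR adjusted p = 0.0248, and 0.144 over 8 tumours). The neurofilament Nefl was at 109, 24.9, 6.37 and 78.2 CPM in KP, 189, 137 and 197 in KPH2 2 to 4, and 27.3 in KPH2 1, with a log2 fold change of 1.67 (edgeR adjusted p = 0.296). Stmn2, a tubulin-binding protein of growing axons, had 1.07 (edgeR adjusted p = 0.26), and Uchl1 0.18 (edgeR adjusted p = 0.821). Avil, a sensory neuron protein named after its values were seen, had −3.09 (edgeR adjusted p = 0.0516). The other markers of kinds of axon were uneven, with Th at 0 reads in all tumours, Chat at most 1 and Scn10a at most 3, but Calca up to 10, Prph up to 23 and Isl1 up to 84, the last in KPH2 1. Axon RNA is in any case mostly held in cell bodies outside the limb.

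The perineurium, the sheath around nerve bundles, was covered by 8 genes, of which 5 were tested. The 1 called higher, against 1.24% of all genes tested, was again Itgb4, with Itga6 in both lists. Slc2a1, a glucose transporter of the sheath and of many tumour cells, had a log2 fold change of −0.28 (edgeR adjusted p = 0.887) and Tjp1, of tight junctions, 0.36 (edgeR adjusted p = 0.309). The oligodendrocyte markers, which would bear on Mbp and Mag, were at or near 0 apart from Aspa, a gene that other tissues use: Mog had at most 7 reads, Cldn11 and Mobp at most 1, and Olig2 and Nkx2-2 0. None of the genes of these lists was called with all 8 tumours, against 0.00675% of 14805 genes. Muscle markers were higher in KPH2 2 to 4 than in KP, as were Itgb4, Scn9a and Ngfr, but the order within KPH2 2 to 4 differed. Summed muscle levels were 12647, 20073 and 4397 CPM in KPH2 2, 3 and 4. KPH2 4 was highest of them for Itgb4, Scn9a and Ngfr, and KPH2 3 was lowest for Itgb4 and Scn9a. The part of muscle in Itgb4 and Scn9a was not tested. With the mean log2 CPM of the muscle markers as a covariate, the log2 fold change of Ngfr was 1.14 (edgeR adjusted p = 0.819), that of Pmp22 −0.65 (edgeR adjusted p = 0.819) and that of Cdh19 −2.36 (edgeR adjusted p = 0.841).

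The 8 genes did not vary together across the tumours. Over the 28 pairs, Pearson's r of log2 CPM over 8 tumours ran from −0.77 to 0.73 with a median of 0.11, and 16 were positive and 12 negative. At an unadjusted exact permutation p under 0.05 there were 3 pairs, and 0 after Benjamini-Hochberg adjustment over the 28 pairs (smallest 0.414). These were Prx with Ngfr (r = 0.73, p = 0.0378, rho = 0.79, p = 0.0279, exact permutation tests), Pmp22 with Cdh19 (r = 0.73, p = 0.0443, rho = 0.71, p = 0.0576) and Mag with S100b (r = −0.77, p = 0.0270, rho = −0.76, p = 0.0368). Without the 2 tumours farthest from the median of the x measure, r was 0.75 for Prx with Ngfr, 0.55 for Pmp22 with Cdh19 and −0.09 for Mag with S100b, so the last rested on those tumours. Of the 28 pairs 5 changed sign in this way. S100b had no partner above 0.18. No tumour was high throughout: KP 5 was highest for Prx, Pmp22, Sox10 and Cdh19 but lowest for Mbp, KP 8 was highest for Mbp and Mag but lowest for S100b, and KPH2 3 was lowest for Pmp22, Mag and Cdh19.

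**Figure D4:**
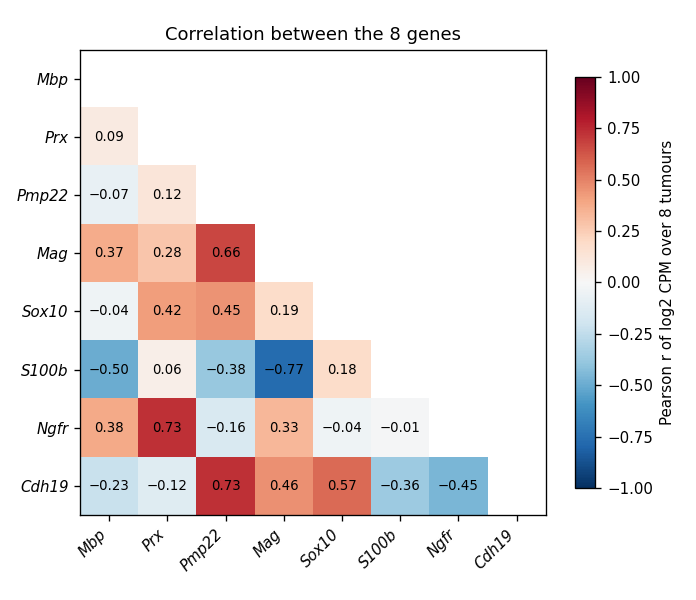
Pearson's r of log2 CPM between each pair of the 8 genes over 8 tumours, coloured from −1 (blue) to 1 (red) with the value in each cell. Positive and negative cells are mixed, from −0.77 for Mag with S100b to 0.73 for Prx with Ngfr and Pmp22 with Cdh19.

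The genes most like each of the 8 over the 8 tumours were not other genes of the set. By Pearson's r of log2 CPM among the 14804 or 14805 other tested genes, a description without a test in which all points share libraries and many genes reach a high r by number alone, Mbp was most like Fam174a (0.97), Rad23b and Gpr183. Prx was most like Tmem44 (0.97), Map3k4 and Plekha4, and Pmp22 like Idua (0.96), 9130208D14Rik and Shisa5. Mag was most like Nlrp12 (0.94), Gm11052 and F630111L10Rik, and Sox10 like Sergef (0.96), Tril and Pdp1. S100b was most like Neurl2 (0.94) and Plk1. Ngfr was most like Tubb2b (0.98), Myo18a and Phldb3, and Cdh19 like B3galnt1 (0.98), Sh3gl3 and Trim6. The best partner within the 8 reached 0.73 at most.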

How the data were processed

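RNA-seq was carried out on 4 KP and 4 KPH2 tumours. The authors deposited raw counts per gene, which per the paper and labels were unique alignments to GRCm38 by STAR 2.4, counted per RefSeq gene with HTSeq 0.6.1, and log2 values from the regularized log transformation of DESeq2 1.6 for 7 tumours, used here as an alternative. A second such table for 8 tumours was not used here.

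Counts of 7 tumours (without KPH2 1) were tested in R 4.3.3 with edgeR 4.0.16 (TMM, low-count filter with a minimum count of 10 and total of 15, robust quasi-likelihood test) and Benjamini-Hochberg adjustment over all tested genes. CPM used TMM library sizes over 8 tumours, log2 CPM a prior count of 2, and RPKM the union exon length of RefSeq-matched GENCODE transcripts. Confidence intervals are t intervals on edgeR's total degrees of freedom. Every pair of libraries differed beyond counting error. The script was tested on simulated data. The alternatives were all 8 tumours, other normalizations and filters, DESeq2 1.42.0, edgeR without robust estimates, limma 3.58.1 on the log2 values, a muscle score as a covariate and leaving out each tumour.

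The 8 genes and all lists were chosen with earlier results of these data known. Genes named are the 8, Epas1, up to 5 called and the 3 most abundant genes of each list, and the 3 genes most like each of the 8. Others, among them Drp2 and the markers given as near 0, were chosen after their values were seen. Some alleles and list genes, called ones included, are not reported here. Called and abundant genes of the lists of other cell types are given as counts and sums where no result turned on them.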

Additional observations from a re-analysis of the deposited data

How the results depend on the processing

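No gene of the 7 tested passed an adjusted p of 0.05 under any alternative other than the Wald test of DESeq2, which called 1, Cdh19 (log2 fold change −3.32). The count over all genes, 292, fell to 1 with all 8 tumours and to 3 with the muscle score as a covariate, and was 1175 with DESeq2. Leaving out 1 tumour gave 55 to 349 genes, with 55 without KPH2 2, 73 without KP 7, 130 without KP 6 and also without KP 8, 153 without KPH2 4 and 159 without KPH2 3. The fold change of Mbp, near 0, changed sign with all 8 tumours (−0.0026), with the muscle score (−0.25) and without KP 5 (−0.031), KP 7 (−0.016) or KPH2 3 (−0.034), and reached 0.29 without KP 8. That of Mag became 0.24 with the muscle score and 0.015 without KPH2 3 (−1.23 without KPH2 4), and that of S100b −1.27 with the muscle score, 1.04 without KP 5, 0.998 without KPH2 4, 0.27 without KP 8 and 0.15 without KPH2 2. The difference in mean log2 CPM of Sox10, −0.41, ran from −0.80 to 0.030 with 1 tumour left out, the last without KP 5. Pmp22 and Cdh19 stayed lower in KPH2 (−0.87 to −0.44 and −5.22 to −1.09) and Ngfr and Prx higher (0.40 to 1.63 and 0.13 to 0.60), on the log2 scale, under every alternative that tested them. No pair of the 8 genes was correlated after adjustment under the 3 alternatives run for pairs. The cause of these shifts was not tested. No paired analysis was possible because the replicate numbers of KP (5 to 8) and KPH2 (1 to 4) do not overlap. The low read count of Sox10 kept it out of the fit.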
